A study of Mus musculus with 12 samples.

Results

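The genes for the Toll-like receptors *Tlr1*, *Tlr2*, *Tlr3*, *Tlr4*, *Tlr6*, *Tlr7*, *Tlr8* and *Tlr9* and for the LPS co-receptors *Cd14* and *Ly96* were followed in thioglycollate-elicited PECs during LPS stimulation. They were chosen by gene symbol, and all 10 symbols were found among the 12850 genes listed. PECs are the cells, mostly macrophages, that gather in the peritoneal cavity after thioglycollate, an irritant, has been injected. The cells came from C57BL/6 mice, either WT or homozygous for the knock-in allele Zc3h12a S513A/S513A (S513A), and were unstimulated (0 hr) or received LPS at 100 ng/ml for 4 or 8 hr. *Zc3h12a* encodes Regnase-1, an RNase that degrades inflammatory mRNAs, and the allele replaces a serine to which 14-3-3 proteins bind once it is phosphorylated. The allele was present in every cell of the mouse from the germline, and neither the age of the mice nor the number of mice behind a library was given in the sources used here. Each of the 6 groups had 2 libraries of polyadenylated RNA, 12 in all, and since the labels do not say that they came from separate mice, the p values measure the spread between these libraries, which may be technical.

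Toll-like receptors are transmembrane proteins of innate immune cells that recognize microbial molecules through a leucine-rich ectodomain and signal through a cytoplasmic TIR domain. TLR4 binds LPS together with MD-2, the product of *Ly96*, after CD14 has passed an LPS molecule on, while TLR2 pairs with TLR1 or TLR6 to recognize bacterial lipoproteins. TLR3, TLR7, TLR8 and TLR9 sense nucleic acids inside endosomes. MyD88 is the adaptor of most of these receptors. TRIF serves TLR3 in its place and TLR4 beside it, and both routes lead to activation of NF-κB.

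The libraries held 9525979 to 12439960 reads on the listed genes, with a median of 11137241. Levels were given as log2 CPM, and the 3 reads taken as the detection floor corresponded to between -2.04 and -1.30 on that scale. All 10 receptor genes lay above this floor in every library, the lowest being *Tlr9* with 13 to 66 reads. The 6 macrophage markers (*Adgre1*, *Csf1r*, *Cd68*, *Fcgr1*, *Mertk* and *Lyz2*) summed to between 15086 and 25367 CPM in every library, whereas the 4 B cell markers summed to at most 8.87 CPM and no erythroid marker was listed. Most of the macrophage sum was *Lyz2*, with medians of 14.07, 14.03 and 13.90 log2 CPM at 0, 4 and 8 hr, beside 10.05, 10.96 and 11.47 for *Adgre1*. All 7 genes of the LPS response list rose at 4 hr, up to *Cxcl10*, a chemokine (log2 fold change 10.86, limma, adjusted p = 1.71e-08). *Zc3h12a* itself lay between 4.99 and 5.39 log2 CPM at 0 hr, between 7.87 and 8.11 at 4 hr and between 6.80 and 7.11 at 8 hr over both genotypes. Because the allele is a base substitution, gene-level values of *Zc3h12a* do not check the genotype labels.

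The receptor genes were placed on the mouse genome GRCm38 (mm10), and all 10 were annotated as protein-coding. *Tlr2* lies at chr3:83836272-83841767 on the minus strand, *Tlr4* at chr4:66827584-66930284 on the plus strand, *Ly96* at chr1:16688051-16709611 on the plus strand and *Tlr9* at chr9:106222598-106226883 on the plus strand. *Tlr1* at chr5:64924679-64933563 and *Tlr6* at chr5:64952031-64960097 are neighbours on the minus strand, and *Tlr8* at chrX:167242696-167264329 and *Tlr7* at chrX:167304929-167330558 are neighbours on the minus strand as well. *Tlr1* and *Tlr6* are paralogs: 13.6% of the stretches of 50 bases in *Tlr1* transcripts also occur in *Tlr6* transcripts, and 12.3% the other way round, so that the assignment of reads between this pair is uncertain to that extent. *Tlr3*, at chr8:45395665-45411080 on the minus strand, overlaps exons of *Gm45542* on the other strand. With unstranded mapping, reads from this overlap cannot be told apart. *Gm45542* shares 5.30% of the stretches of 50 bases in *Tlr3* transcripts.

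RefSeq promoters (GRCm38.p6) were searched for 6 of the 10 genes, with 8 start sites. *Cd14* was left out of this search, so nothing is said here about its promoter. In the 250 bases before each start, 4 motifs were searched on both strands: an NF-κB motif, written as GGGA, 4 bases of any kind and CC (found before 17.6% of all 32841 starts), an interferon response motif, written as GAAA, 2 bases of any kind and GAAA (2.98%), a PU.1 motif, GAGGAAGT (2.44%), and an AP-1 motif, TGANTCA (6.75%). PU.1 is a transcription factor of macrophages and B cells. *Tlr8*, which rose at 4 hr, had no match, and its window is not shown. The windows shown are those of 4 genes that rose with LPS and whose window held a match. They let the sequence be read beside the levels, with bases that match a motif in capitals. They are *Tlr2* at chr3:83841609-83841858, *Tlr1* at chr5:64933559-64933808, *Tlr6* at chr5:64959167-64959416 and *Tlr3* at chr8:45410381-45410630, all on the minus strand and written 5′ to 3′ toward the start.
Tlr2: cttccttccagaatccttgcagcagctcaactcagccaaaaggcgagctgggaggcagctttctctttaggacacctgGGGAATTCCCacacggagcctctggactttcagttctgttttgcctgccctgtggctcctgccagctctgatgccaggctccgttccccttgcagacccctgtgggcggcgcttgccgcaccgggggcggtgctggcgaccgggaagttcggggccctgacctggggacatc
Tlr1: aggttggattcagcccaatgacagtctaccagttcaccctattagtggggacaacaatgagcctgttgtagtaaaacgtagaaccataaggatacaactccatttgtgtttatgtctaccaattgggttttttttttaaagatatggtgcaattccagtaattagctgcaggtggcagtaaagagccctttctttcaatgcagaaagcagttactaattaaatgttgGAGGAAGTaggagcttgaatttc
Tlr6: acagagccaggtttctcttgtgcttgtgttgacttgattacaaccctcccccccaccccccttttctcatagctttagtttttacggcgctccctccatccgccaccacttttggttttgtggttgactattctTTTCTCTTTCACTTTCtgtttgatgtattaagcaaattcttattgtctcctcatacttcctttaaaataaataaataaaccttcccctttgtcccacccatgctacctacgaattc
Tlr3: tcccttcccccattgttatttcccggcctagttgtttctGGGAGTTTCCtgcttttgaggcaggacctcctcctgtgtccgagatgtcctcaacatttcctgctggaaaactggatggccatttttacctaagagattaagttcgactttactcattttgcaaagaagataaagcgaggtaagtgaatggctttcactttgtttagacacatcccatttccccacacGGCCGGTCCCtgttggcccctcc
The *Tlr2* promoter held the palindromic NF-κB match GGGAATTCCC at -172 to -163, counted from the first base before the start as -1. The *Tlr3* promoter held 2 NF-κB matches, GGGAGTTTCC at -211 to -202 and GGCCGGTCCC, which matches on the other strand, at -23 to -14. The *Tlr1* window held the PU.1 motif at -23 to -16, and the *Tlr6* window held 2 overlapping matches to the interferon motif on the other strand, at -116 to -107 and -110 to -101. None of the 4 motifs was found in the window of *Tlr8* or before the other start of *Tlr1* and of *Tlr6*, and that of *Tlr9* held an AP-1 match, TGACTCA, at -58 to -52. A match describes these letters only, and binding was not measured.

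To see how LPS changed the receptor genes, the 4 libraries of 4 hr and of 8 hr were each compared with the 4 libraries of 0 hr as the mean of both genotypes. At 4 hr, 7 of the 10 genes rose: *Cd14*, *Tlr2*, *Tlr1*, *Tlr3*, *Tlr7*, *Tlr6* and *Tlr8*, from 13.5-fold for *Cd14* down to 1.48-fold for *Tlr8*. *Tlr4*, the receptor for LPS itself, fell to 0.805 of its level at 0 hr, and *Ly96* and *Tlr9* did not pass the test. At 8 hr 6 genes rose and none passed in the other direction. Of all 11885 genes tested, 55.8% passed at 4 hr (29.1% higher, 26.7% lower) and 46.1% at 8 hr (24.5% higher, 21.6% lower). The median log2 fold change of the 10 genes was 1.35 at 4 hr and 1.16 at 8 hr, beside 0.02 and -0.0007 over all genes. Both comparisons share the 0 hr libraries. No library came from cells kept without LPS for 4 or 8 hr, so that LPS and time in culture cannot be told apart. The RNA came from PECs in bulk, so that a change in the share of cells expressing a receptor and a change in the RNA per cell cannot be told apart.

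**Figure D1:**
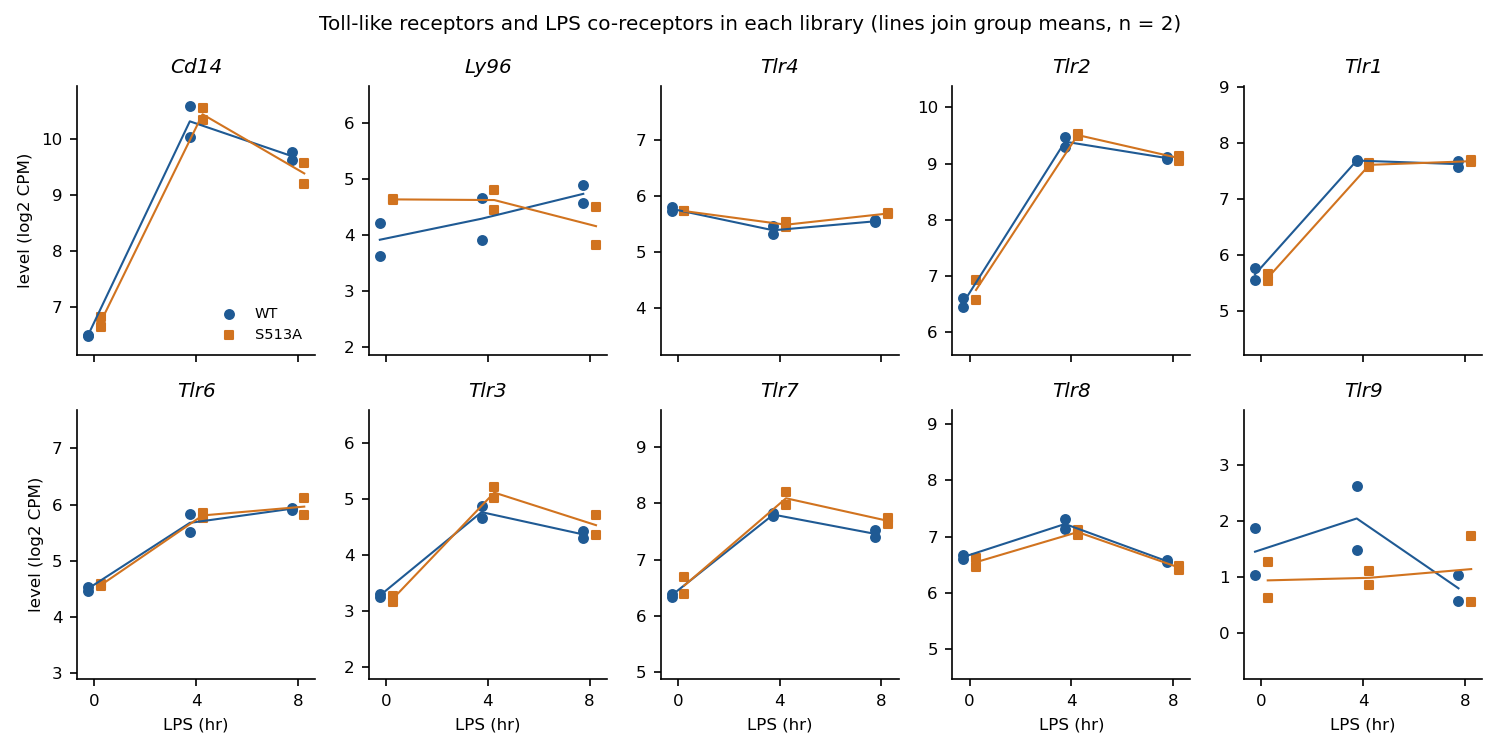
Level of each receptor gene (log2 CPM, vertical axis spanning the same number of log2 units in every panel) against hours of LPS, with a circle for each WT library and a square for each S513A library; lines join the means of the 2 libraries of a group. *Cd14*, *Tlr2*, *Tlr1*, *Tlr3*, *Tlr6* and *Tlr7* lie higher at 4 and 8 hr than in every 0 hr library, *Tlr8* is higher at 4 hr only, *Tlr4* moves by less than 0.4, and *Ly96* and *Tlr9* are scattered within groups.

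**Figure D2:**
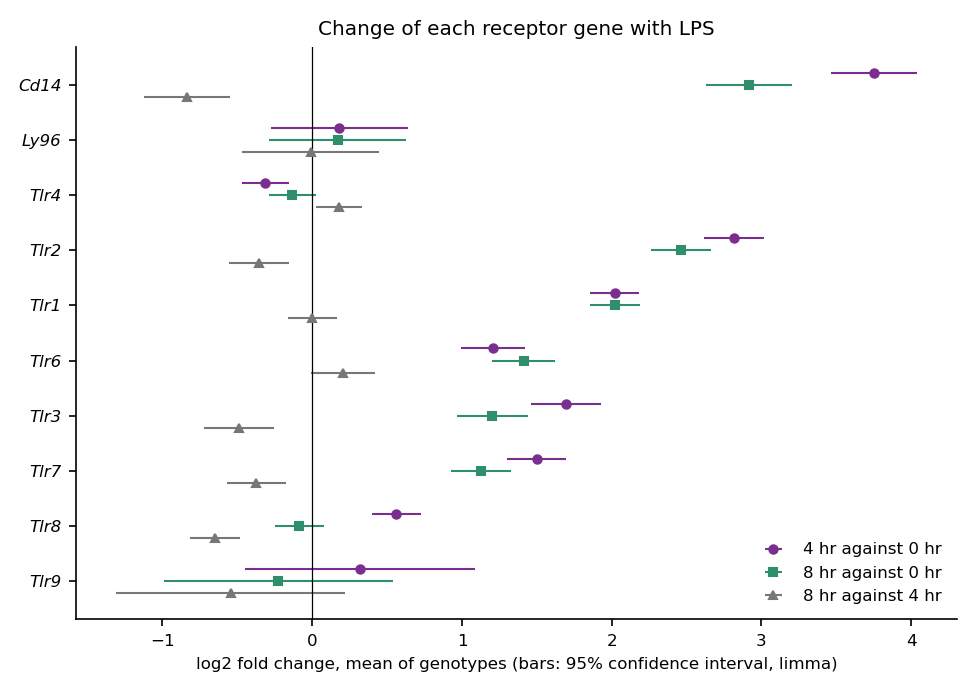
Log2 fold change of each receptor gene (mean of genotypes) at 4 hr against 0 hr (circles), 8 hr against 0 hr (squares) and 8 hr against 4 hr (triangles), with 95% confidence intervals from limma. The intervals of *Cd14* (3.47 to 4.04 at 4 hr) and *Tlr2* (2.61 to 3.01) lie farthest to the right, and those of *Ly96* and *Tlr9* include 0 in all 3 comparisons.

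*Cd14*, the membrane-anchored protein that delivers LPS to TLR4 and MD-2, showed the largest change of the 10 genes. In WT cells its levels were 6.51 and 6.49 log2 CPM at 0 hr, 10.59 and 10.03 at 4 hr, then 9.63 and 9.76 at 8 hr. In S513A cells they were 6.66 and 6.83, then 10.33 and 10.55, then 9.20 and 9.57. Every stimulated library was at least 2 log2 units above every 0 hr library, and the 8 hr libraries lay below all 4 hr libraries. The log2 fold change was 3.75 ± 0.13 (SE, adjusted p = 2.05e-09) at 4 hr and 2.92 ± 0.13 (adjusted p = 1.93e-08) at 8 hr, which are 13.5-fold and 7.55-fold. Between 4 and 8 hr it fell by 0.84 (adjusted p = 0.000986). Neutrophils also carry CD14 and TLR2, and of their 6 markers only *S100a8* and *Csf3r* were listed, and their sum was 103 to 122 CPM at 0 hr, 137 to 181 at 4 hr and 160 to 212 at 8 hr. The defining markers *S100a9*, *Ly6g*, *Cxcr2* and *Retnlg* were not among the listed genes, and the part of neutrophils in these levels was not tested.

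*Tlr4* had the narrowest range of group means of the 10 genes, 0.38 log2 units. WT cells had 5.81 and 5.74 log2 CPM at 0 hr, 5.32 and 5.46 at 4 hr, then 5.54 and 5.57 at 8 hr, and S513A cells had 5.74 and 5.73, 5.54 and 5.44, and 5.69 and 5.69. All 8 stimulated libraries lay below the 4 libraries of 0 hr, by small distances. The log2 fold change was -0.31 ± 0.07 (adjusted p = 0.0030) at 4 hr and -0.13 ± 0.07 (adjusted p = 0.150) at 8 hr. Within genotypes the difference at 4 hr was -0.38 in WT cells (adjusted p = 0.0103) and -0.24 in S513A cells (adjusted p = 0.0711), and the difference between these was itself 0.14 (95% confidence interval -0.17 to 0.45). The WT call at 4 hr was lost in 3 alternatives, among them the fit without replicate 1 of WT at 0 hr (adjusted p from 0.0740 to 0.140), and the S513A difference passed in 4, among them the fits without either replicate of WT at 4 hr (adjusted p from 0.0091 to 0.0420). At 8 hr the mean of genotypes passed with quantile normalization (-0.24) and after a trend with transcript length was removed (-0.21). Thus *Cd14* and *Tlr4*, whose products act on the same ligand, went in opposite directions at 4 hr. Per transcript length, the level of *Cd14* exceeded that of *Tlr4* by 2.02 to 2.41 log2 units at 0 hr, 5.88 to 6.59 at 4 hr and 4.82 to 5.51 at 8 hr over the 4 libraries of each time.

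*Ly96*, which encodes the LPS-binding co-receptor MD-2, passed no test of LPS in the mean of genotypes. Its levels in WT cells were 3.62 and 4.21 log2 CPM at 0 hr, 4.66 and 3.92 at 4 hr, then 4.58 and 4.89 at 8 hr. In S513A cells they were 4.63 and 4.64, 4.45 and 4.80, and 3.82 and 4.50. The libraries of the 3 times overlapped, and both libraries of a group differed by a median of 0.47 and by up to 0.74, against a median of 0.05 for *Tlr4*. The log2 fold change was 0.18 (95% confidence interval -0.28 to 0.64) at 4 hr and 0.17 (-0.29 to 0.63) at 8 hr. By genotype, the S513A libraries were both lower at 8 hr than at 0 hr (-0.48, limma, adjusted p = 0.220). The crossed replicate block joins replicate 1 of each group with replicate 2 of the other. It gave an adjusted p of 0.0364 here, but was used only where replicate differences of the 2 groups correlated negatively. The WT libraries were both higher at 8 hr than at 0 hr (0.82, limma, adjusted p = 0.0517). This WT difference passed in 9 of the alternatives, with adjusted p values from 0.0064 to 0.0493, 5 of them fits that left out a library (either replicate of WT at 4 hr, replicate 2 of WT at 0 hr or either replicate of S513A at 8 hr).

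The transcript of *Ly96* is short, at most 666 bases, and short transcripts as a class differed between libraries. For the 443 tested genes with a longest transcript under 1000 bases, the median deviation from each gene's mean over the libraries was taken as a measure of each library. Unstimulated WT cells had deviations of -0.42 and -0.01 log2 units, and after 4 hr these were 0.17 and -0.36 and after 8 hr 0.17 and 0.28. The same order of times gave 0.46 and 0.27, 0.03 and 0.48, and -0.75 and -0.07 for S513A cells. In 5 of the 6 groups the library with the higher deviation also had the higher *Ly96*, the exception being S513A at 0 hr, where *Ly96* differed by 0.01. *Ly96* itself belongs to these 443 genes. For the other receptor genes this held in 0 (*Tlr8*) to 4 (*Cd14*, *Tlr3* and *Tlr7*) of the 6 groups. After a trend with transcript length was removed from each library, the log2 fold change of *Ly96* at 8 hr was 0.29 in WT cells (adjusted p = 0.0950) and 0.14 in S513A cells (adjusted p = 0.406). What made short transcripts differ between libraries was not tested.

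**Figure D3:**
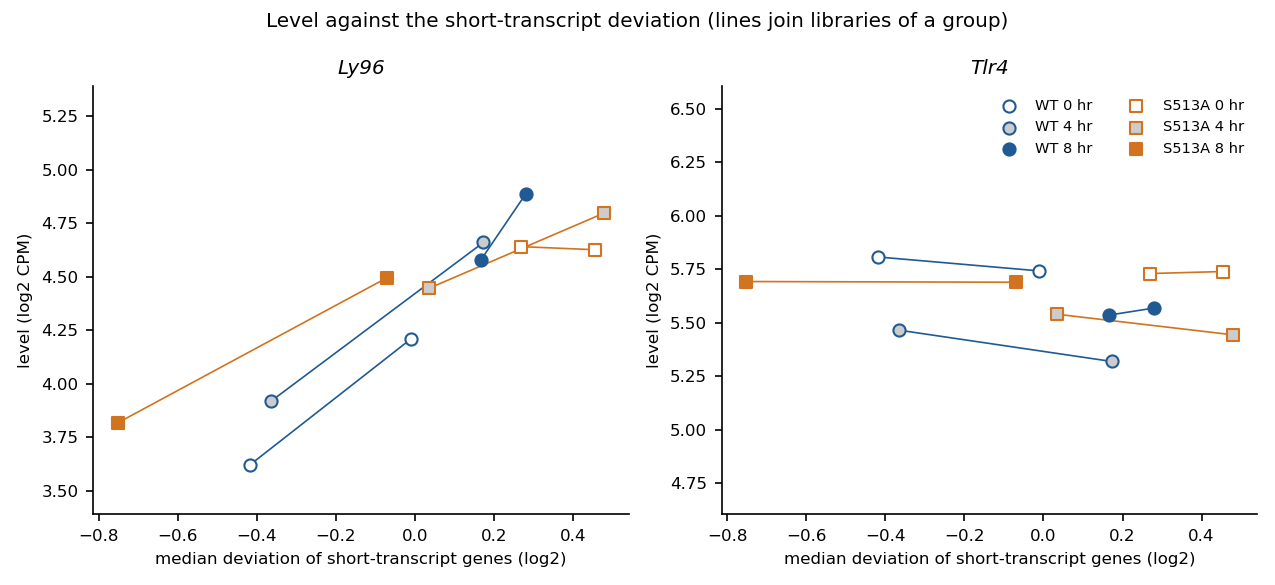
Level of *Ly96* (left) and *Tlr4* (right) in log2 CPM against the median deviation of short-transcript genes in the same library, with circles for WT and squares for S513A, white, gray and filled for 0, 4 and 8 hr, and lines joining the 2 libraries of a group. For *Ly96* the library farther to the right is the higher in 5 of 6 groups, and for *Tlr4* in 2 of 6.

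*Tlr2* rose strongly and together with both genes for its partner receptors. Its levels were 6.60 and 6.44 log2 CPM in WT cells at 0 hr, 9.48 and 9.30 at 4 hr, then 9.08 and 9.11 at 8 hr. S513A cells had 6.58 and 6.92, 9.52 and 9.49, and 9.05 and 9.14. The 0 hr libraries were far apart from all others, and the 8 hr libraries lay below all 4 hr libraries. The change was 7.04-fold at 4 hr (log2 2.81 ± 0.09, adjusted p = 1.22e-09) and 5.51-fold at 8 hr (log2 2.46 ± 0.09, adjusted p = 4.75e-09). This gene, whose promoter held the NF-κB palindrome shown above, fell by 0.35 from 4 to 8 hr (adjusted p = 0.0160), a call lost with quantile normalization and without replicate 1 of WT at 8 hr.

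*Tlr1*, the partner of TLR2 for triacylated lipoproteins, reached a level at 4 hr that it held at 8 hr. WT cells had 5.77 and 5.55 log2 CPM at 0 hr, 7.70 and 7.67 at 4 hr, then 7.68 and 7.56 at 8 hr, and S513A cells had 5.53 and 5.66, 7.64 and 7.57, and 7.69 and 7.65. Stimulated libraries of both times covered the same narrow range. The fold change was 4.06 at both times (log2 2.02 ± 0.08), and the difference between 8 and 4 hr was 0.0008 (95% confidence interval -0.16 to 0.17). *Tlr6*, the partner for diacylated lipoproteins, had 4.54 and 4.47, 5.84 and 5.51, and 5.94 and 5.91 in WT cells and 4.54 and 4.59, 5.84 and 5.77, and 6.11 and 5.81 in S513A cells at 0, 4 and 8 hr. It rose 2.31-fold at 4 hr (adjusted p = 1.37e-06) and 2.66-fold at 8 hr (adjusted p = 5.06e-07), and its 4 and 8 hr libraries overlapped (difference 0.20, adjusted p = 0.149, and 0.29 with adjusted p = 0.0385 without replicate 1 of WT at 4 hr). Of the 7 genes that rose at 4 hr, *Tlr1* and *Tlr6* were the ones that did not pass as lower at 8 hr than at 4 hr.

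Because the 3 genes rose by different amounts, the balance between TLR2 mRNA and that of its partners changed. Per transcript length, *Tlr2* exceeded *Tlr1* by 0.84 to 1.26 log2 units in the libraries of 0 hr, by 1.63 to 1.92 at 4 hr and by 1.36 to 1.55 at 8 hr. It exceeded *Tlr6* by 2.26 to 2.62, 3.93 to 4.08 and 3.22 to 3.61. The ranges at 0 hr did not overlap those of stimulated cells in either pair. These differences within a library depend on the transcript length chosen, but their change with time does not.

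Of the nucleic acid sensors, *Tlr3*, which recognizes double-stranded RNA, rose from the lowest levels. WT cells had 3.30 and 3.25 log2 CPM at 0 hr, 4.66 and 4.87 at 4 hr, then 4.31 and 4.42 at 8 hr, and S513A cells had 3.26 and 3.16, 5.01 and 5.21, and 4.35 and 4.71. All stimulated libraries lay above those of 0 hr. The log2 fold change was 1.69 ± 0.11 at 4 hr (adjusted p = 2.09e-07) and 1.20 ± 0.11 at 8 hr (adjusted p = 4.17e-06), and it fell by 0.49 in between (adjusted p = 0.0068).

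*Tlr7*, a sensor of single-stranded RNA, had 6.39 and 6.33 log2 CPM at 0 hr, 7.83 and 7.77 at 4 hr, then 7.40 and 7.52 at 8 hr in WT cells. S513A cells had 6.38 and 6.70, 7.98 and 8.21, and 7.63 and 7.75. The 3 times did not overlap. It rose 2.82-fold at 4 hr (adjusted p = 1.56e-07) and 2.18-fold at 8 hr (adjusted p = 1.93e-06), and was lower at 8 hr than at 4 hr by 0.37 (adjusted p = 0.0120), a call lost without replicate 1 of WT at 8 hr (adjusted p = 0.0570). Plasmacytoid dendritic cells carry TLR7 and TLR9, and their marker *Siglech* was not listed, while *Bst2* and *Ccr9* summed to 77.6 to 146 CPM at 0 hr, 190 to 356 at 4 hr and 391 to 651 at 8 hr. Nearly all of this sum was *Bst2*, with a median of 6.82 log2 CPM at 0 hr and 9.17 at 8 hr, and the part of these cells in the levels of *Tlr7* was not tested.

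*Tlr8*, the neighbour of *Tlr7* on the X chromosome and its closest relative among the receptors, rose only at 4 hr. WT cells had 6.67 and 6.60 log2 CPM at 0 hr, 7.13 and 7.32 at 4 hr, then 6.57 and 6.55 at 8 hr, and S513A cells had 6.46 and 6.63, 7.13 and 7.03, and 6.48 and 6.41. The 8 hr libraries lay among those of 0 hr or just below. The log2 fold change was 0.56 ± 0.07 at 4 hr (adjusted p = 8.04e-05) and 0.29 with quantile normalization (adjusted p = 0.0087). At 8 hr it was -0.09 (adjusted p = 0.380), and the difference between 8 and 4 hr was -0.65 (adjusted p = 0.000163). With quantile normalization or with the length trend removed, *Tlr8* passed as lower at 8 hr than at 0 hr (-0.27 and -0.17).

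*Tlr9*, the sensor of CpG DNA, had the lowest level of the 10 genes and varied most between the libraries of a group. It had 1.87 and 1.03 log2 CPM in WT cells at 0 hr, 1.47 and 2.61 at 4 hr, then 1.03 and 0.56 at 8 hr, and 0.62 and 1.26, 0.86 and 1.10, and 1.73 and 0.55 in S513A cells. The libraries of the 3 times overlapped, and the libraries of a group differed by up to 1.18. WT cells at 4 hr lay above S513A cells at 4 hr. The log2 fold change was 0.32 at 4 hr (95% confidence interval -0.45 to 1.08) and -0.23 at 8 hr (-0.99 to 0.54). With this spread between libraries, both intervals held rises as well as falls. B cells express *Tlr9*, and the summed level of their 4 markers was 3.44 to 7.00 CPM at 0 hr, 6.59 to 8.02 at 4 hr and 4.23 to 8.87 at 8 hr, and their part was not tested.

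The later course was followed by comparing 8 hr with 4 hr directly. Of the 10 genes, 5 passed as lower and none as higher, where 25.6% of all genes passed, 12.8% in each direction. These were *Cd14* (-0.84), *Tlr8* (-0.65), *Tlr3* (-0.49), *Tlr7* (-0.37) and *Tlr2* (-0.35), and the median over all 10 genes was -0.36 beside -0.02 over all genes tested. Of these 5, *Tlr8* overlapped the unstimulated libraries at 8 hr, and every 8 hr library of the other 4 lay above every 0 hr library. Without replicate 1 of WT at 8 hr, 3 genes passed. *Tlr4* differed by 0.18 between 8 and 4 hr (adjusted p = 0.0870), a difference that passed without replicate 2 of WT at 4 hr and with the length trend removed (adjusted p = 0.0406 to 0.0487).

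Ordered by level per transcript length (log2 RPKM with the longest annotated transcript), *Cd14* was the most abundant of the 10 at each time and *Tlr9* the least. At 0 hr *Cd14* (5.91 ± 0.16, SD, n = 4) was followed by *Tlr2* (5.04 ± 0.20), *Ly96* (4.86 ± 0.48), *Tlr8* (4.81 ± 0.09) and *Tlr7* (4.49 ± 0.17), and from *Tlr2* to *Tlr7* each gene overlapped the next. Then came *Tlr1* (4.03), *Tlr4* (3.73), *Tlr6* (2.66), *Tlr3* (1.10) and *Tlr9* (-0.60), each apart from the next. LPS spread the receptors over a wider scale. At 4 hr *Cd14* reached 9.66 ± 0.25 and *Tlr2* 7.86 ± 0.10, and *Tlr1* (6.05) and *Tlr7* (5.98) overlapped in the next places, ahead of *Tlr8* (5.37) and *Ly96* (5.04), which overlapped too. *Tlr6* (3.86) stood above *Tlr4* (3.41) in every library of 4 hr, the reverse of 0 hr. This held with the longest transcript only: with the mean transcript length, replicate 2 of WT at 4 hr had *Tlr6* (4.47) below *Tlr4* (4.64).

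The order at 8 hr was *Cd14* (8.83), *Tlr2* (7.50), *Tlr1* (6.05), *Tlr7* (5.61), *Ly96* (5.03), *Tlr8* (4.73), *Tlr6* (4.07), *Tlr4* (3.59), *Tlr3* (2.31) and *Tlr9* (-0.83), with *Ly96* overlapping both of its neighbours. *Tlr7* and *Tlr8* changed places with LPS: the level of *Tlr7* per length minus that of *Tlr8* was -0.46 to -0.11 log2 units at 0 hr, 0.27 to 0.99 at 4 hr and 0.64 to 1.16 at 8 hr. With the mean length of the annotated transcripts instead of the longest, 20 of the 30 places in the 3 orders were kept. At 0 hr *Tlr2* then moved from place 2 to place 5, and *Tlr4* (4.93) stood above *Tlr1* (4.57).

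**Figure D4:**
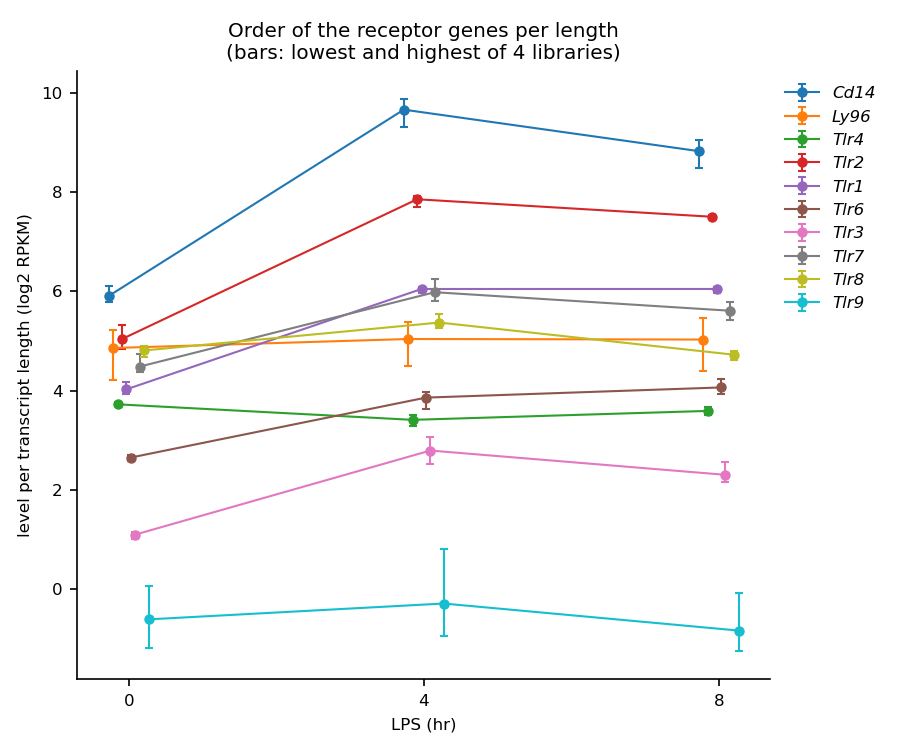
Mean level per transcript length (log2 RPKM, longest annotated transcript) of each receptor gene at 0, 4 and 8 hr of LPS, with bars from the lowest to the highest of the 4 libraries of both genotypes. *Cd14* and *Tlr2* leave the other genes behind after LPS, *Tlr1* and *Tlr7* pass *Tlr8* and *Ly96*, and *Tlr6* passes *Tlr4*.

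The wider pathway was read from gene lists, against the same 55.8% of all genes passing at 4 hr and 46.1% at 8 hr. *Tlr13*, a sensor of bacterial ribosomal RNA and the only other Toll-like receptor listed, was at 8.77, 8.79 and 8.94 log2 CPM at 0 hr (lowest, median and highest of 4 libraries), at 8.10, 8.15 and 8.18 at 4 hr and at 8.33, 8.37 and 8.41 at 8 hr. It was lower by 0.67 at 4 hr (limma, adjusted p = 1.00e-05) and by 0.45 at 8 hr (adjusted p = 0.000287). Of the receptors that share its endosomal location, *Tlr3* and *Tlr7* rose at both times, *Tlr8* rose at 4 hr only and *Tlr9* did not pass. *Tlr5*, *Tlr11* and *Tlr12* were not among the listed genes.

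Of 10 genes for receptor transport and processing, 2 rose and 4 fell at 4 hr, and 2 rose and 2 fell at 8 hr, with medians of -0.23 and -0.16. *Ap3b1*, a subunit of the adaptor complex that sorts endosomal receptors, rose by 0.74 at 4 hr, and *Cnpy3*, a chaperone that helps Toll-like receptors leave the endoplasmic reticulum, fell by 0.93. Of 6 genes for ligand transfer and accessory proteins, 1 passed at 4 hr, *Cd36*, a scavenger receptor that assists TLR2 and TLR6 (-0.41), and at 8 hr 1 rose and 3 fell. Their medians were -0.31 and -0.39.

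Of 12 adaptors and proximal kinases, 10 rose and 1 fell at 4 hr and 8 rose and 1 fell at 8 hr, with medians of 0.51 and 0.52. *Myd88*, the shared adaptor, rose by 1.67 at 4 hr and *Irak4*, the kinase next to it, fell by 0.38. Of 8 negative regulators tested, 6 rose and 2 did not pass at both times, with medians of 1.94 and 1.39. *Socs1*, an inhibitor of cytokine and Toll-like receptor signaling, rose by 4.69 at 4 hr. Between genotypes no gene of these 4 lists passed in the mean of time points. Of the 7 genes of the LPS response list, *Ccl5* passed as higher in S513A at 0 hr and in the mean of time points. Of all genes tested, 0.0337% and 0.0673% passed in these comparisons.

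To ask whether the S513A allele changed the receptors, S513A cells were compared with WT cells at each time and over the mean of the times. None of the 10 genes passed at 0, 4 or 8 hr or over the mean by limma, where 0.0337%, 0.0168%, 0.0337% and 0.0673% of all genes passed. At an unadjusted p under 0.05, 1, 2, 0 and 1 of the 10 did, beside 7.98%, 7.01%, 12.5% and 6.71% of all genes. These were *Ly96* at 0 hr (0.72, adjusted p = 0.586, and 0.20 with adjusted p = 0.592 once the length trend was removed), *Tlr3* (0.35) and *Tlr7* (0.29) at 4 hr, both with adjusted p = 0.622, and *Tlr7* in the mean of times (0.23, 95% confidence interval 0.07 to 0.40, adjusted p = 0.562). *Tlr7* was above both WT libraries in both S513A libraries at 4 and at 8 hr, but not at 0 hr. The groups of 4, 6 and 5 of the 10 genes did not overlap at 0, 4 and 8 hr, where 57.5%, 28.2% and 53.6% of all genes did not overlap.

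The precision of these comparisons differed between receptors. Over the mean of times the difference between genotypes was 0.07 (95% confidence interval -0.06 to 0.19) for *Tlr4*, -0.03 (-0.16 to 0.11) for *Tlr1*, 0.11 (-0.05 to 0.28) for *Tlr2* and 0.02 (-0.21 to 0.25) for *Cd14*. Those for *Tlr6*, *Tlr3* and *Tlr8* were 0.08, 0.15 and -0.12, each with an interval that included 0. For *Ly96* (0.16, -0.21 to 0.53) and *Tlr9* (-0.41, -1.03 to 0.22) the intervals were wider, and at any given time those of *Tlr9* spanned more than 2 log2 units.

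**Figure D5:**
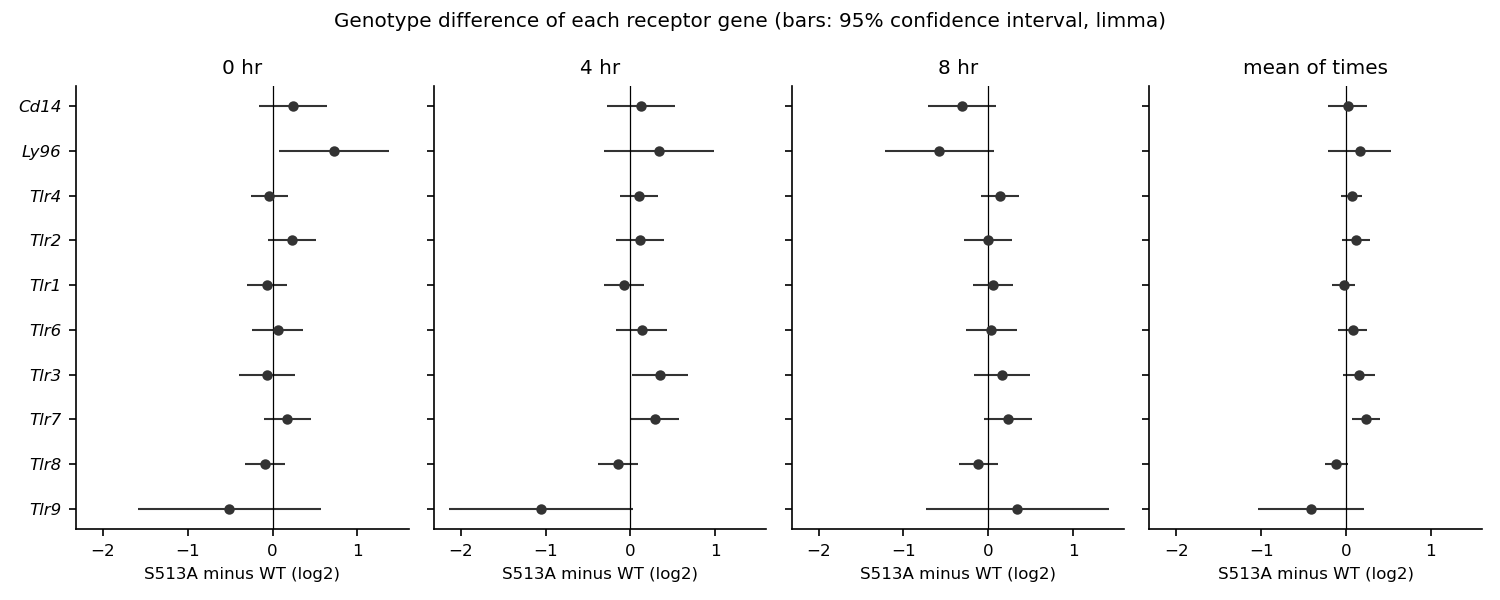
Difference S513A minus WT of each receptor gene (log2 CPM) at 0, 4 and 8 hr and over the mean of the times, with 95% confidence intervals from limma on a shared axis. Most intervals include 0. Those that do not are *Ly96* at 0 hr, *Tlr3* and *Tlr7* at 4 hr and *Tlr7* in the mean of times, and none passed after adjustment.

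Whether the response to LPS itself differed between genotypes was tested as an interaction. None of the 10 genes passed at 4 or 8 hr by limma, and 0.0% of all genes passed at either time, with 1.21% and 20.2% of all genes at an unadjusted p under 0.05. *Cd14* rose after 4 hr by 3.81 in WT cells and by 3.70 in S513A cells, and after 8 hr by 3.19 and 2.64, an interaction of -0.55 at 8 hr (95% confidence interval -1.12 to 0.02, adjusted p = 0.255), which was -0.14 with the length trend removed. *Tlr2* rose by 2.87 and 2.76 at 4 hr and by 2.58 and 2.35 at 8 hr, and *Tlr1* by 2.03 and 2.01 and by 1.96 and 2.08. In WT cells 8 of the 10 genes passed at 4 hr and 6 at 8 hr, and in S513A cells 7 and 6, where 41.3%, 34.3%, 43.2% and 39.9% of all genes passed. The gene that separated the counts at 4 hr was *Tlr4*.

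The genes whose course over the 12 libraries was most like that of the 3 most variable receptors were found by the smallest root mean square difference of centred log2 CPM among 8352 genes. For *Cd14* these were *Trex1*, a DNA exonuclease (0.22), and *Ccl2*, a chemokine (0.23), and for *Tlr2* they were *Nfkbia*, the inhibitor IκBα (0.12), and *Slc6a12*, a transporter of betaine (0.12). For *Tlr1* they were *Ppfibp2* (0.07) and *Pstpip2* (0.10). All points share the same libraries and their depth.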

How the data were processed

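RNA from PECs was sequenced as polyadenylated, paired-end libraries. The authors aligned them without strand information to mm10 using HISAT2 and counted reads per gene with featureCounts 1.6.3, per the paper and the submitters' processing notes. The authors deposited log2 CPM values, in which 0.5 was added to the reads before scaling to a library size, and from which whole reads were recovered for every gene and library within 0.1 read (largest departure 0.00145). The program, annotation and gene filter behind these values are not given in the sources used here. The floor on reads covers counting error only, and confidence intervals come from the spread between libraries.

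The test covered 11885 genes that reached 1 CPM in 2 or more libraries. Those log2 values entered limma 3.58.1 (R 4.3.3) unchanged, as a mean for each of 6 groups, 6 residual degrees of freedom, a prior that follows the mean level, two-sided tests and Benjamini-Hochberg adjustment over all genes tested, with a threshold of 0.05. All 10 receptor genes passed the filter. Positions and lengths came from the GENCODE annotation of GRCm38, which gave a length for 93.1% of listed genes. Alternatives were a filter on a mean of 5 CPM, no filter, 1 CPM added before the log, quantile and median-ratio normalization, a replicate block, a prior without trend, a fit of only the groups compared, voom weights, each library left out in turn and mean transcript lengths. Removal of a trend with transcript length (spline with 5 degrees of freedom) and a crossed block were chosen after seeing the data. The crossed block was fitted only to pairs of groups whose replicate differences correlated negatively in these same data. Its p values are therefore no independent support. The model was tested on simulated data. Tables and plots were made with Python 3.11.15, pandas 2.3.3, numpy 2.4.6 and matplotlib 3.10.9. The receptor genes and the lists were chosen with earlier results of these data known. All 10 receptors are named, and from each list the genes with the largest rise and fall among those past the threshold at 4 hr. *Trex1*, *Ccl2*, *Nfkbia*, *Slc6a12*, *Ppfibp2* and *Pstpip2* were named by a rule of likeness to the 3 receptors with the widest range of group means, among genes with a mean of at least 3 log2 CPM.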

Additional observations from a re-analysis of the deposited data

Results flagged for a closer look

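The response of *Ly96* to 8 hr of LPS went in opposite directions in the genotypes: both WT libraries lay above both WT libraries of 0 hr, and both S513A libraries lay below both S513A libraries of 0 hr. The interaction was -1.30 ± 0.41 (SE) on the log2 scale and did not pass after adjustment by limma (adjusted p = 0.193). It was -0.15 with the trend with transcript length removed (adjusted p = 0.696). The short-transcript deviation moved with it, from -0.42 and -0.01 to 0.17 and 0.28 in WT and from 0.46 and 0.27 to -0.75 and -0.07 in S513A.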

How the results depend on the processing

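In no alternative did a call reverse its direction. The counts of receptor genes past the threshold were 8 in every alternative for 4 hr against 0 hr in the mean of genotypes, 6 to 8 for 8 hr against 0 hr and 3 to 6 for 8 hr against 4 hr (5 in the report). The lowest of these, 3, came without replicate 1 of WT at 8 hr, where *Tlr2* and *Tlr7* were lost, and leaving out each library in turn gave 3 to 6. Within genotypes the counts were 7 to 8 at 4 hr in both, 6 to 8 at 8 hr in WT and 6 to 7 at 8 hr in S513A. *Tlr8* at 4 hr in S513A was lost with quantile normalization (adjusted p = 0.0670). *Tlr4* and *Tlr8* passed as lower at 8 hr against 0 hr in the mean of genotypes with quantile normalization and with the length trend removed, which gave the 8. Without replicate 2 of S513A at 8 hr, the interaction of *Ly96* at 8 hr was -1.63, from a fit that left 1 library in that group. The causes of these changes were not tested. The labels do not say whether replicate numbers pair the libraries. The correlation of replicate differences between groups ranged from -0.75 to 0.76, and within a genotype from -0.36 to 0.76. These correlations cannot decide on pairing, because replicate differences also carry the trend with transcript length. With the replicate block the counts were those of the report. The crossed block, in fits of 4 libraries, gave 1 gene at 0 hr (*Ly96*, adjusted p = 0.0046) and 1 at 4 hr (*Tlr9*, adjusted p = 0.0102) between genotypes, added *Ly96* as lower at 8 hr against 0 hr in S513A (-0.48, adjusted p = 0.0364) and lost *Tlr4* at 4 hr in WT. Since this block was fitted only where replicate differences correlated negatively, these calls are no independent support. The share of all genes that passed in these fits is not given here, so the calls cannot be read as particular to these receptors. edgeR and DESeq2 were not run, because the deposited unit is log2, and voom weights on the recovered reads took their place. *Tlr9* had 13 to 66 reads per library, and the part of depth in its spread was not tested.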
